A study of Mus musculus with 12 samples.

Results

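Tumors treated with cyto-IL-15 were compared with tumors treated with HBSS, the vehicle, across all expressed genes. The comparison used the gene counts of the 3 cyto-IL-15 and the 3 HBSS tumors, 6 of the 12 tumors in the series, chosen by their treatment labels alone. By their labels all 6 grew from TRAMP-C2 cells, a line derived from a transgenic mouse prostate adenocarcinoma, implanted under the skin of the right flank of male C57BL/6J mice aged 6 to 8 weeks and left to reach about 200 mm3. The cyto-IL-15 mice received 2 doses of 10 µg into the tumor, on days 0 and 4. Cyto-IL-15 is IL-15 joined to a lipid-bearing peptide that lets the cytokine settle in cell membranes. The HBSS mice received 3 injections of 50 µl Hank's balanced salt solution, on days 0, 2 and 4. Cyto-IL-15 was diluted in PBS, so the groups differed in the number of injections and in the carrier as well as in the cytokine, and these cannot be told apart. Tumors were taken on day 6, divided and frozen, and RNA from dissociated tumor was sequenced in bulk, so a library need not stand for the whole tumor. The tumors are named as in the labels: 9R, 13 and 20LL received cyto-IL-15, and 19, 22R and 22LL received HBSS. The names are the only trace of the animals, and p-values here set the difference between groups against the spread between these tumors.

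IL-15 is held on the surface of presenting cells by its own receptor alpha chain and is shown from there to lymphocytes that carry the beta chain (Il2rb) and the common gamma chain (Il2rg). The signal runs through JAK kinases and STAT5 and keeps NK cells and memory CD8+ T cells alive, dividing and armed. These cells kill by releasing granules that hold perforin, which opens the target membrane, and granzymes, the proteases that enter through it.

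Tumor 13 of the cyto-IL-15 group stood apart from the other 5, and values are therefore given by tumor, with the main results also without it. Over the 18594 tested genes, the correlation of log2(CPM + 0.5) between tumor 13 and any other tumor was 0.931 to 0.953, and between the other 5 tumors it was 0.980 to 0.992, as a description over genes that share libraries. CPM are counts relative to the library total, after TMM scaling for differences in library composition. Tumors 13 and 9R, both given cyto-IL-15, differed by a median of 0.48 on the log2 scale, tumors 13 and 20LL by 0.47, and tumors 9R and 20LL by 0.21. Tumor 13 lay more than 1 log2 unit beyond all 5 other tumors in 2045 genes (11%), 846 of them above and 1199 below. The same count was 115 in 9R and 40 in 20LL, against 26 in HBSS tumor 19, 66 in 22R and 18 in 22LL. Library totals were 48772204 to 79020457 counts in the cyto-IL-15 tumors and 61269250 to 89374663 in the HBSS tumors, and mitochondrial genes took 1.11% to 1.49% of counts in the cyto-IL-15 tumors and 0.892% to 1.21% in the HBSS tumors.

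The labels give the same cell line for all 6 tumors, and whether tumor 13 came from the same cell stock was not tested. The prostate label was checked against markers named for the tumor cells. The keratin Krt8 was at 2.30, 84.0 and 3.04 CPM in cyto-IL-15 tumors 9R, 13 and 20LL, and at 6.30, 6.67 and 144 CPM in HBSS tumors 19, 22R and 22LL, so it was high in 1 tumor of each group. Its partner Krt18 stayed at or under 5.95 CPM in all 6. The differentiated prostate genes Pbsn and Tmprss2 were at or near 0 and had at most 0.0327 CPM in any tumor. The mesenchymal filament gene Vim, in contrast, reached 2443, 5146 and 3021 CPM in the cyto-IL-15 tumors and 2376, 2769 and 2884 CPM in the HBSS tumors.

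At an adjusted p under 0.05 with an absolute log2 fold change above 1, the edgeR quasi-likelihood test over the 6 tumors called 0 of 18594 genes (0%), and its smallest adjusted p was 0.522. At an unadjusted p under 0.05 edgeR gave 396 genes higher (2.13%) and 310 lower (1.67%) in the cyto-IL-15 tumors. The Wald test of DESeq2 called 109 genes, 88 higher (0.404%) and 21 lower (0.0964%). edgeR without tumor 13 called 179 genes, 177 higher (0.907%) and 2 lower (0.0102%), with the estimated biological coefficient of variation at 0.253, against 0.419 with it. The DESeq2 calls and the calls without tumor 13 shared 62 genes, 56.9% of the DESeq2 list and 34.6% of the other. All 3 cyto-IL-15 tumors lay above all 3 HBSS tumors in 927 genes (4.99%) and below them in 1063 (5.72%). The log2 fold change was above 1 in 1060 genes (5.7%) and below -1 in 448 (2.41%). With 3 tumors against 3, an exact permutation test of a single gene cannot give a two-sided p under 0.1. Genes whose groups do not overlap have that p, and 10.7% of the tested genes were such genes. The sections below therefore give values by tumor, and the words higher and lower describe levels in these tumors.

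The gene with the smallest p in both tests was Gzmc, which encodes granzyme C, a granule protease of mouse NK and activated CD8+ T cells. Gzmc was at 22.0, 37.9 and 14.3 CPM in cyto-IL-15 tumors 9R, 13 and 20LL, and at 0.905, 0.862 and 1.19 CPM in HBSS tumors 19, 22R and 22LL. The groups were far apart, and tumor 13 had the most. The mean was 24.7 ± 12 CPM with cyto-IL-15 and 0.985 ± 0.178 CPM with HBSS (SD, n = 3 each). The log2 fold change was 4.64 ± 0.44 (SE), with an adjusted p of 0.522 by edgeR and 5.45e-23 by DESeq2. Without tumor 13 the log2 fold change was 4.19 and the edgeR adjusted p 0.00213.

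Its neighbour Gzmb encodes granzyme B, which cleaves caspases in the target cell. Gzmb was at 12.6, 17.8 and 13.8 CPM in the cyto-IL-15 tumors, and at 2.75, 2.40 and 4.08 CPM in the HBSS tumors (log2 fold change 2.26 ± 0.30 SE, edgeR adjusted p = 0.898, DESeq2 adjusted p = 1.51e-08). Prf1, perforin, was at 20.7, 13.2 and 23.4 CPM in the cyto-IL-15 tumors, and at 4.14, 2.36 and 3.45 CPM in the HBSS tumors (2.53 ± 0.33, edgeR 0.898, DESeq2 9.62e-09). Gzma, granzyme A, a tryptase of the same granules, was at 18.9, 9.19 and 43.7 CPM in the cyto-IL-15 tumors, and at 2.99, 1.72 and 2.46 CPM in the HBSS tumors (3.32 ± 0.61, edgeR 0.898, DESeq2 1.56e-05). None of the 3 genes overlapped between groups, and for Gzma and Prf1 tumor 13 had the least of the cyto-IL-15 tumors. Without tumor 13 all 3 were called by edgeR, at adjusted p of 0.014 for Gzmb, 0.00607 for Prf1 and 0.0172 for Gzma. Over the 16 alternative fits of each of Gzmc, Gzmb, Prf1 and Gzma, the adjusted p ran from the DESeq2 value to 1. In these bulk samples, fewer cells of a type and less RNA per cell cannot be told apart, here and in every list that follows.

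**Figure D1:**
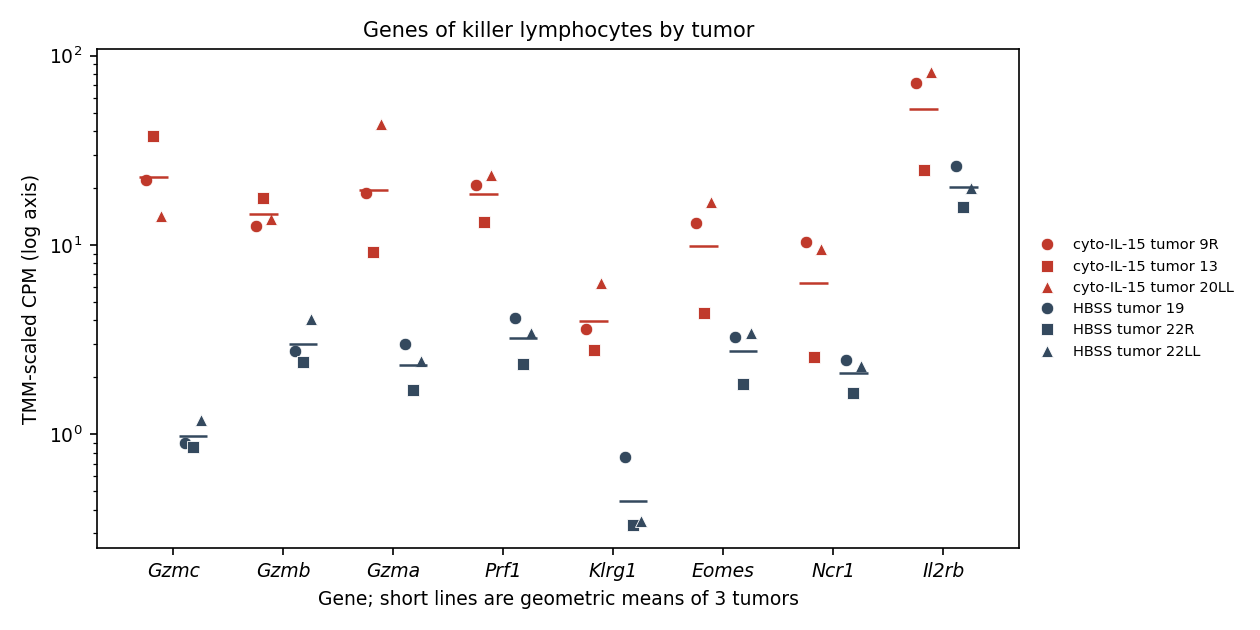
TMM-scaled CPM of 8 genes of killer lymphocytes (log axis), 1 point per tumor, cyto-IL-15 tumors in red and HBSS tumors in dark blue, with the geometric mean of each group as a short line. Gzmc sits at 14.3 to 37.9 CPM in the cyto-IL-15 tumors, against 0.862 to 1.19 CPM in the HBSS tumors, and tumor 13 (red squares) drops to near the HBSS points from Eomes to Il2rb.

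Gzmc and Gzmb lie in the granzyme cluster of chromosome 14, on the minus strand, Gzmc at chr14:56231401-56234656 and Gzmb at chr14:56258856-56262260 (GRCm38). Their promoters are shown because both genes were higher in every cyto-IL-15 tumor while their flanking sequence differs. The letters run 5′ to 3′ on the gene's strand, cover 250 bases before and 50 after the RefSeq start (GRCm38.p6), and capitals mark TTCNNNGAA, the STAT5 motif, or TGAGTCA, the AP-1 motif, searched on both strands.
Gzmc (chr14:56234608-56234907, minus strand): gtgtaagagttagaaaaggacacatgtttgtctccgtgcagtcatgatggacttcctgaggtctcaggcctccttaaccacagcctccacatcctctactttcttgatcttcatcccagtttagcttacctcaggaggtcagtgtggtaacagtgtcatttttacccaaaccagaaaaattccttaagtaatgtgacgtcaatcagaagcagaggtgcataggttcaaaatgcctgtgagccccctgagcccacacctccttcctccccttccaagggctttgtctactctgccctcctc
Gzmb (chr14:56262285-56262584, minus strand): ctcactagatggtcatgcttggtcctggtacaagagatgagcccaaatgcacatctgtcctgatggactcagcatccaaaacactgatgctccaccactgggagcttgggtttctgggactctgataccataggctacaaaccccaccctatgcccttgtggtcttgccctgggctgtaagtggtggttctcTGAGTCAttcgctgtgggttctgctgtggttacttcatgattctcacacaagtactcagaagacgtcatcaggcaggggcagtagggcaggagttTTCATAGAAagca
Gzmb held 1 TGAGTCA that begins 58 bases before the RefSeq start and 1 TTCNNNGAA that begins 37 bases after it, and no letters of Gzmc matched either motif. For Gzmb this start lies upstream of the gene span given above. The whole stretch printed for Gzmb therefore lies before that span, the TTCNNNGAA included. Of the 32851 RefSeq promoters of this length, 8.3% held TTCNNNGAA, 5.2% held TGAGTCA and 0.454% held both. In the cytotoxic granule list, 20 of 22 genes had a RefSeq promoter, and of their 23 promoters 4 held TTCNNNGAA and 1 held TGAGTCA. A match describes these letters and no more.

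The cytotoxic granule list held 22 genes, of which 17 passed the filter on low counts. Their median log2 fold change was 0.90, against 0.04 over all tested genes. By edgeR 0 were called and 9 had an unadjusted p under 0.05, all higher. DESeq2 called 4, the fit without tumor 13 called 6, and 6 did not overlap between groups (Gzmc, Gzmb, Gzma, Prf1, Srgn and Stxbp2). Over all genes, 2.13% were higher at an unadjusted p under 0.05. On the same side DESeq2 called 0.404%, the fit without tumor 13 called 0.907%, and 4.99% did not overlap. Srgn, the proteoglycan core that packs granzymes, was at 41.1, 43.4 and 46.5 CPM in the cyto-IL-15 tumors, and at 36.5, 32.9 and 33.1 CPM in the HBSS tumors, a small gap. Stxbp2, needed for granule fusion, was at 39.8, 66.8 and 47.8 CPM in the cyto-IL-15 tumors, and at 34.0, 24.2 and 35.6 CPM in the HBSS tumors. Other granule genes were higher in 9R and 20LL alone. Ctsw, a protease of killer lymphocytes, was at 26.2, 4.62 and 36.8 CPM in the cyto-IL-15 tumors, and at 8.73, 4.68 and 6.86 CPM in the HBSS tumors (log2 fold change 1.74, edgeR adjusted p = 0.898, and 2.22 at 0.0169 without tumor 13). Fasl, the death ligand, was at 2.71, 0.859 and 4.23 CPM in the cyto-IL-15 tumors, and at 1.05, 0.875 and 0.873 CPM in the HBSS tumors (1.48 with edgeR adjusted p = 0.898, and 1.90 at 0.0334 without tumor 13). Nkg7, a granule membrane protein, overlapped between groups at 22.0, 4.46 and 31.3 CPM with cyto-IL-15 and 11.1, 4.87 and 6.55 CPM with HBSS. Gzmk overlapped too, at 3.21, 0.697 and 4.03 CPM with cyto-IL-15 and 1.66, 0.848 and 0.906 CPM with HBSS.

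The remaining granzymes of the cluster, Gzmd to Gzmg, were read almost only in tumor 13. Gzmd was at 0.0584, 11 and 0.0125 CPM in the cyto-IL-15 tumors and at no more than 0.0133 CPM in any HBSS tumor. Tumor 13 also had 5.16 CPM of Gzme, 6.47 CPM of Gzmf and 3.78 CPM of Gzmg, and no other tumor exceeded 0.109 CPM of any of these. None of the 4 passed the filter, and none was tested. The genes are near-identical copies, so counting could have shifted reads among them and Gzmc. Serpinb9, the inhibitor that protects cells from granzyme B, was also highest in tumor 13, at 40.5, 126 and 29.3 CPM in the cyto-IL-15 tumors and 32.1, 40.6 and 44.0 CPM in the HBSS tumors.

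NK cell genes were higher in tumors 9R and 20LL and near the HBSS level in tumor 13. All 33 listed genes were tested, with a median log2 fold change of 1.81, and 30 had a positive sign. By edgeR 0 were called, 25 had an unadjusted p under 0.05, all higher, and 14 did not overlap between groups. DESeq2 called 7 and the fit without tumor 13 called 20. The shares of all genes on the higher side were 2.13%, 4.99%, 0.404% and 0.907% in the same order. By tumor, 29 of the 33 lay above all HBSS tumors in 9R, 16 in 13 and 29 in 20LL, and the median difference from the HBSS mean was 1.64, 0.18 and 1.79 on the log2 scale. The share of all tested genes above every HBSS tumor was 29.3% in 9R, 39.7% in 13 and 30.8% in 20LL.

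Ncr1, the activating receptor NKp46 and a defining marker of NK cells, was at 10.3, 2.58 and 9.53 CPM in the cyto-IL-15 tumors, and at 2.46, 1.66 and 2.29 CPM in the HBSS tumors. Klrb1c, the NK1.1 antigen, was at 10.4, 2.48 and 10.8 CPM in the cyto-IL-15 tumors, and at 2.30, 1.87 and 1.76 CPM in the HBSS tumors. For both markers tumor 13 lay just above the highest HBSS tumor, and 9R and 20LL lay well above it. The log2 fold change was 1.81 ± 0.55 (SE) for Ncr1 and 2.00 ± 0.57 for Klrb1c, each with an edgeR adjusted p of 0.898. Without tumor 13 it was 2.22 for Ncr1 (adjusted p = 0.0113) and 2.43 for Klrb1c (adjusted p = 0.00607). Eomes, a transcription factor of NK and memory CD8+ T cells, was at 13.0, 4.39 and 16.9 CPM in the cyto-IL-15 tumors, and at 3.26, 1.86 and 3.44 CPM in the HBSS tumors (log2 fold change 2.00, DESeq2 adjusted p = 0.0346). Klrd1, the CD94 chain of the NKG2 receptors, was at 15.3, 4.41 and 19.3 CPM in the cyto-IL-15 tumors, and at 4.02, 2.19 and 2.79 CPM in the HBSS tumors (2.12, DESeq2 adjusted p = 0.0312).

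Klrg1, Klra6 and Klra5 differed from this pattern in that tumor 13 was clearly above the HBSS tumors. Klra5, a Ly49 receptor read at low levels, was at 0.506, 0.730 and 1.09 CPM in the cyto-IL-15 tumors. In the HBSS tumors it was at 0.0485, 0.106 and 0 CPM (DESeq2 adjusted p = 0.00477, and edgeR 0.154 without tumor 13). Klrg1, an inhibitory receptor of mature effector cells, was at 3.58, 2.79 and 6.30 CPM in the cyto-IL-15 tumors, and at 0.760, 0.331 and 0.349 CPM in the HBSS tumors (log2 fold change 3.14 ± 0.52 SE, DESeq2 adjusted p = 1.81e-06). Klra6, a Ly49 receptor, was at 1.30, 2.61 and 2.85 CPM in the cyto-IL-15 tumors, and at 0.582, 0.451 and 0.502 CPM in the HBSS tumors (2.14 ± 0.40, DESeq2 adjusted p = 0.00106). Without tumor 13 the edgeR adjusted p was 0.0184 for Klrg1 and 0.0733 for Klra6, so Klra6 was not called there. Klra genes resemble each other closely, and reads could have been split among them. Klra4, another Ly49 gene, was high in tumor 13 alone, at 19.8, 71.9 and 22.9 CPM in the cyto-IL-15 tumors and 15.7, 17.3 and 27.6 CPM in the HBSS tumors. Fcgr3, which macrophages share, overlapped at 85.3, 72.7 and 120 CPM with cyto-IL-15 and 96.7, 89.4 and 103 CPM with HBSS. The NK gene complex holds many of the listed genes, so windows over it show the same values by position and are no second result. In overlapping windows of 10 neighbouring genes, chr6:129408862-133110899 (Clec9a to Smim10l1) lay above the median of the other 5 tumors by more than 1 log2 unit in 16 windows in 9R. The highest window median was 1.95 in 9R, and the same stretch reached 2.02 in 20LL.

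T cell genes split the cyto-IL-15 group. All 28 listed genes lay above all HBSS tumors in 9R and again in 20LL, while in tumor 13 none did and 21 lay below all HBSS tumors, as 41.6% of all tested genes did in that tumor. The median difference from the HBSS mean was 1.43 in 9R, -0.86 in 13 and 1.60 in 20LL. Cd3e, the T cell receptor signaling chain, was at 15.5, 1.91 and 17.4 CPM in the cyto-IL-15 tumors, and at 7.0, 3.99 and 5.64 CPM in the HBSS tumors. Cd8a, the CD8 coreceptor, was at 23.3, 3.03 and 33.7 CPM in the cyto-IL-15 tumors, and at 13.0, 7.05 and 6.23 CPM in the HBSS tumors. In both markers the HBSS tumors lay between tumor 13 and the other cyto-IL-15 tumors. The median log2 fold change over the list was 1.16, with 28 of 28 positive, 0 called by edgeR, 0 by DESeq2, 1 at an unadjusted p under 0.05 and 0 that did not overlap between groups. That gene was Cd96, an adhesion receptor of T and NK cells, at 6.40, 1.30 and 8.06 CPM with cyto-IL-15 and 1.63, 1.06 and 1.40 CPM with HBSS (1.95, edgeR adjusted p = 0.898). Without tumor 13 the median was 1.63 and 15 were called higher, where 0.907% of all genes were. The 15 included Cd3e (1.57, adjusted p = 0.0324) and Cd96 (2.41, 0.0114) but not Cd8a (1.71, 0.111).

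Lymphocyte cytokine genes had the same split as the T cell genes. Of 14 tested, 10 lay above all HBSS tumors in 9R, 0 in tumor 13 and 13 in 20LL, where 29.3%, 39.7% and 30.8% of all tested genes did. Of the 14, edgeR called 0 and DESeq2 0, with 1 at an unadjusted p under 0.05. That was Ifng, interferon-gamma, which was at 1.09, 0.454 and 1.5 CPM in the cyto-IL-15 tumors, and at 0.469, 0.278 and 0.458 CPM in the HBSS tumors (log2 fold change 1.34, edgeR adjusted p = 0.898, and 1.69 at 0.111 without tumor 13). Checkpoint and regulatory T cell genes were less divided. Of 15 tested, 7 did not overlap between groups and all 7 were higher with cyto-IL-15, where 4.99% of all tested genes were, with a median log2 fold change of 0.67, 5 at an unadjusted p under 0.05 and 0 called by edgeR, by DESeq2 or without tumor 13. Ctla4, the inhibitory receptor of activated and regulatory T cells, was at 3.08, 1.99 and 2.38 CPM in the cyto-IL-15 tumors, and at 1.12, 0.504 and 1.46 CPM in the HBSS tumors (1.27, edgeR adjusted p = 0.898). Tigit, an inhibitory receptor of T and NK cells, was at 8.47, 5.01 and 10.2 CPM with cyto-IL-15 and at 4.36, 2.61 and 4.58 CPM with HBSS (1.04). Ikzf2, the Helios factor of regulatory T cells, was at 8.53, 16.6 and 8.25 CPM with cyto-IL-15 and at 5.06, 2.44 and 6.70 CPM with HBSS (1.23). In Ctla4 and Tigit tumor 13 had the least of the cyto-IL-15 tumors, and in Ikzf2 it had the most. Cd274, the PD-1 ligand PD-L1, was at 12.9, 13.8 and 11.1 CPM with cyto-IL-15 and at 9.20, 6.11 and 9.22 CPM with HBSS (0.63).

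The genes of the IL-15 pathway itself differed less. Il2rb was at 71.3, 24.9 and 82.1 CPM in the cyto-IL-15 tumors, and at 26.3, 15.9 and 20.0 CPM in the HBSS tumors. Tumors 9R and 20LL were well above the HBSS tumors, and tumor 13 lay among them. The log2 fold change was 1.52 ± 0.46 (SE, edgeR adjusted p = 0.898), and without tumor 13 it was 1.89 (adjusted p = 0.0114). Il15ra, which presents IL-15, overlapped at 12.5, 6.53 and 11.5 CPM with cyto-IL-15 and 10.3, 6.89 and 11.4 CPM with HBSS. Il15 itself was at 5.39, 1.31 and 6.75 CPM with cyto-IL-15 and 5.90, 5.86 and 5.58 CPM with HBSS, so only tumor 13 was away from the rest. The shared gamma chain Il2rg was at 54.2, 19.6 and 48.1 CPM with cyto-IL-15 and 43.6, 37.5 and 32.4 CPM with HBSS. Il2ra, the high-affinity chain for IL-2, overlapped at 3.33, 4.2 and 2.83 CPM with cyto-IL-15 and 1.78, 0.901 and 2.94 CPM with HBSS. Il7r, the IL-7 receptor of naive and memory lymphocytes, was the only one of the 9 tested ligand and receptor genes that did not overlap, at 4.50, 4.22 and 3.02 CPM with cyto-IL-15 and 1.96, 1.58 and 2.56 CPM with HBSS (log2 fold change 0.94, edgeR adjusted p = 0.898). Il2 did not pass the filter and stayed at or under 0.0808 CPM, and Il7, Il21 and Il21r overlapped between groups. Over the 9 genes the median was 0.10, or 0.44 without tumor 13. Of 19 signaling and target genes 1 had an unadjusted p under 0.05, Id2, a factor NK cells require, at 45.9, 25.0 and 52.3 CPM with cyto-IL-15 and 28.9, 22.3 and 21.4 CPM with HBSS (0.76, edgeR adjusted p = 0.898, and 1.02 at 0.0324 without tumor 13). The cytokine-induced inhibitor Socs3 was high in tumor 13 alone, at 46.0, 256 and 48.1 CPM with cyto-IL-15 and 52.8, 44.0 and 60.0 CPM with HBSS.

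Type I interferon-stimulated genes did not follow the killer genes. Interferon-gamma-inducible and antigen presentation genes split by tumor in the way the T cell genes did. Of 33 type I interferon-stimulated genes, 31 had a negative sign, with a median log2 fold change of -0.45. By edgeR 0 were called, 6 had an unadjusted p under 0.05, all lower, and 5 did not overlap, also lower, and DESeq2 called 0. Over all tested genes, 1.67% were lower at an unadjusted p under 0.05 and 5.72% did not overlap and were lower. By tumor, the median difference from the HBSS mean was -0.20 in 9R, -0.83 in 13 and -0.30 in 20LL. Tumor 13 had 26 of the 33 below all HBSS tumors, 9R had 11 and 20LL had 13, where 41.6%, 29.8% and 29.7% of all tested genes were below in 13, 9R and 20LL. The mean level of the list on the log2 scale was 4.32, 3.76 and 4.25 in 9R, 13 and 20LL, and 4.74, 4.19 and 4.68 in HBSS tumors 19, 22R and 22LL, so 22R lay below 9R and 20LL. Without tumor 13 the median log2 fold change was -0.34 and edgeR called 0. Rsad2, the antiviral protein viperin, was at 9.75, 7.60 and 10.6 CPM in the cyto-IL-15 tumors, and at 17.7, 14.8 and 14.4 CPM in the HBSS tumors (-0.75 ± 0.21 SE, edgeR adjusted p = 0.898, and -0.62 at 0.199 without tumor 13). Ifit1, which binds viral RNA, was at 10.4, 8.20 and 9.00 CPM with cyto-IL-15 and at 14.4, 12.5 and 15.1 CPM with HBSS (-0.61 ± 0.20). In both genes the 3 cyto-IL-15 tumors were close to each other, and tumor 13 was the lowest. Interferon-gamma-inducible genes had a median of 0.03, and of 0.38 without tumor 13. They split by tumor, with 20 of 24 above all HBSS tumors in 9R, 13 of 24 above in 20LL, and 20 of 24 below in 13. Of all tested genes, 29.3% lay above in 9R, 30.8% above in 20LL and 41.6% below in 13. Cxcl9, the chemokine that draws CXCR3+ lymphocytes, was at 155, 21 and 85.2 CPM with cyto-IL-15 and at 77.7, 37.8 and 75.0 CPM with HBSS. Nos2, inducible nitric oxide synthase, was lower in all 3, at 4.44, 3.99 and 5.27 CPM with cyto-IL-15 and 8.71, 13.3 and 7.03 CPM with HBSS (-1.08 ± 0.31, edgeR adjusted p = 0.898). Ifi44, Xaf1, Cxcl11 and Irgm1 overlapped between groups, with Irgm1, a GTPase that acts on vacuoles, at 73.0, 38.9 and 64.3 CPM in the cyto-IL-15 tumors and 62.6, 46.7 and 59.7 CPM in the HBSS tumors.

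All 17 MHC class I pathway genes lay below all HBSS tumors in tumor 13, whereas 11 lay above them in 9R and 14 in 20LL. H2-K1, a class I heavy chain, was at 2071, 259 and 2158 CPM in the cyto-IL-15 tumors, and at 1512, 1010 and 1219 CPM in the HBSS tumors. B2m, the class I light chain, was at 1528, 447 and 1535 CPM with cyto-IL-15 and at 1041, 877 and 1025 CPM with HBSS. The 11 class II genes showed the same split, with 11 below all HBSS tumors in tumor 13 and 9 above in each of 9R and 20LL. Of all tested genes, 41.6% lay below in 13, and 29.3% and 30.8% lay above in 9R and 20LL. Cd74, the class II invariant chain, was at 2559, 275 and 3069 CPM with cyto-IL-15 and at 2242, 966 and 1523 CPM with HBSS. By edgeR and by DESeq2 0 class I and 0 class II genes were called, 0 had an unadjusted p under 0.05, and 0 did not overlap between groups. The median log2 fold change was 0.08 for class I and 0.28 for class II, and without tumor 13 it was 0.49 and 0.78.

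**Figure D2:**
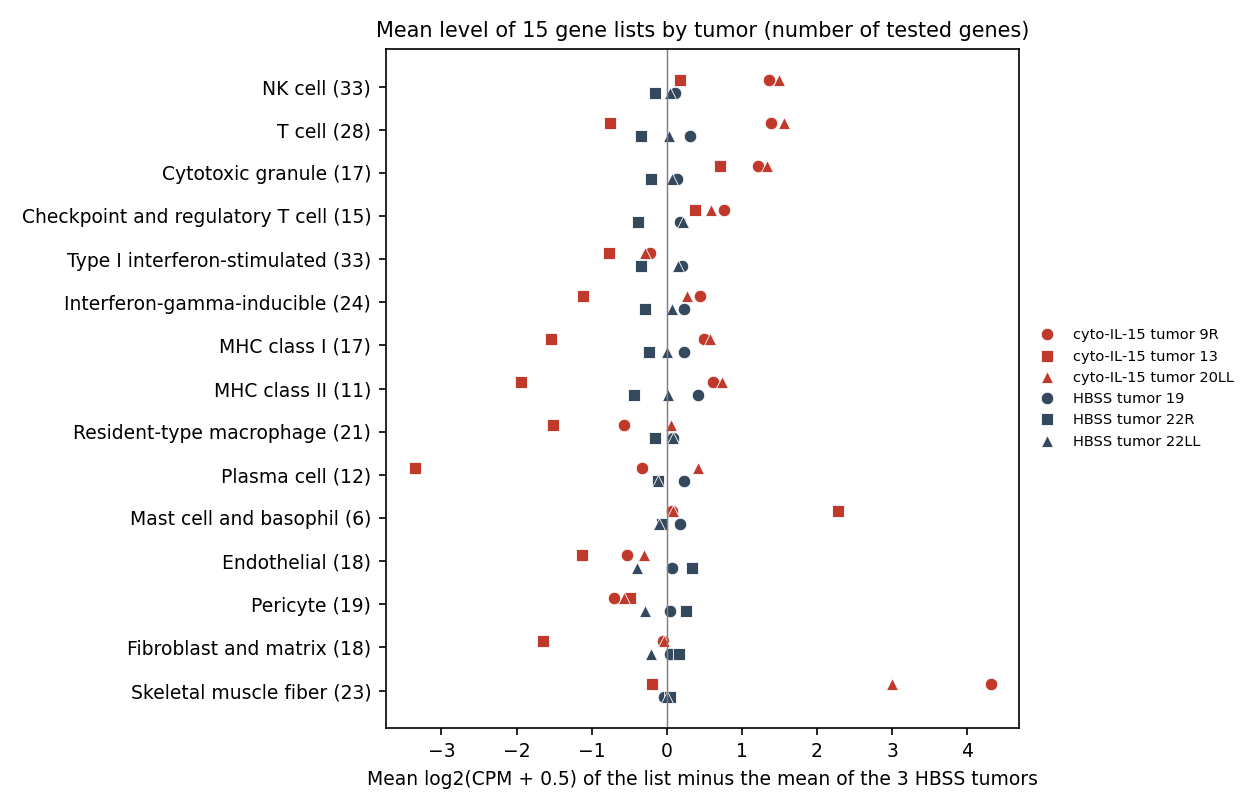
Mean log2(CPM + 0.5) of 15 gene lists in each tumor, minus the mean of the 3 HBSS tumors, with the number of tested genes in brackets, cyto-IL-15 tumors in red above HBSS tumors in dark blue. Tumor 13 (red squares) lies left of every HBSS tumor in the T cell, MHC and plasma cell lists and close to them in the NK list, where 9R and 20LL lie to the right.

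Genes of skeletal muscle fibers were read in 9R and 20LL at levels far above the other 4 tumors. Of 30 listed genes 23 passed the filter, and they had a median log2 fold change of 4.63. Of these, 19 had an unadjusted p under 0.05, 7 did not overlap between groups, and edgeR called 0 and DESeq2 14. The shares of all genes on the higher side were 2.13%, 4.99% and 0.404% for p, overlap and DESeq2. Acta1, skeletal alpha-actin, was at 276, 0.648 and 114 CPM in the cyto-IL-15 tumors, and at 0.501, 0.504 and 0.578 CPM in the HBSS tumors. Ckm, muscle creatine kinase, was at 49.3, 0.113 and 18.8 CPM with cyto-IL-15 and at 0.0970, 0.106 and 0.164 CPM with HBSS. Tumor 13 was at the HBSS level in both. Myh2, a fast myosin heavy chain, was at 41.7, 0 and 23.5 CPM with cyto-IL-15 and at 0.178, 0.331 and 0.153 CPM with HBSS. Tnni2, a fast troponin, kept the 3 cyto-IL-15 tumors above the HBSS tumors, at 36.2, 5.93 and 17.3 CPM with cyto-IL-15 and 2.46, 3.53 and 2.61 CPM with HBSS (log2 fold change 2.79 ± 0.65 SE, edgeR adjusted p = 0.898, DESeq2 adjusted p = 0.00223). The list took 0.152%, 0.00178% and 0.0553% of all counts in 9R, 13 and 20LL, against 0.00443%, 0.00695% and 0.00557% in 19, 22R and 22LL.

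These muscle genes moved between tumors as the NK and T cell genes did, high in 9R and 20LL and not in 13. Of the muscle list, 20 of 30 genes were called higher without tumor 13, where 0.907% of all genes were. Mb, the oxygen store myoglobin, had the smallest p in that fit, at 36.2, 0.0162 and 25.8 CPM with cyto-IL-15 and at most 0.0265 CPM in any HBSS tumor. With the muscle genes taken out of the table before scaling, edgeR again called 0 genes (691 at an unadjusted p under 0.05). The part of muscle tissue in the killer gene results was not tested.

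**Figure D3:**
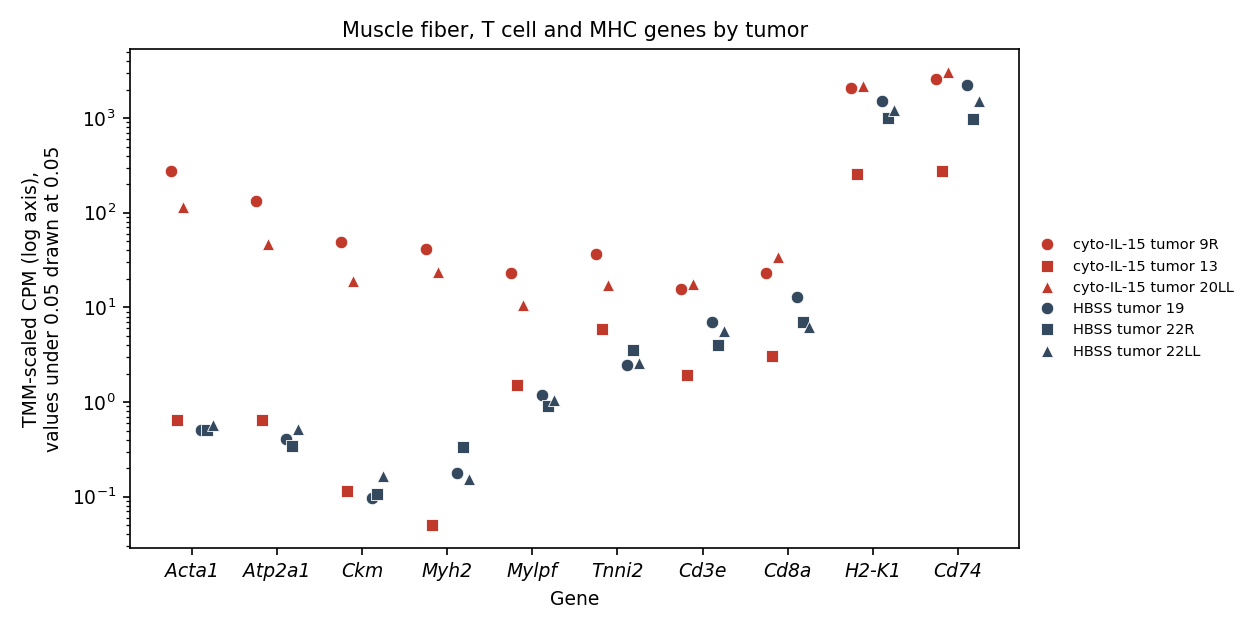
TMM-scaled CPM (log axis, values under 0.05 drawn at 0.05) of muscle fiber, T cell and MHC genes, 1 point per tumor, cyto-IL-15 tumors in red and HBSS tumors in dark blue. Acta1 reaches 276 and 114 CPM in 9R and 20LL and 0.648 CPM in tumor 13, against 0.501 to 0.578 CPM in the HBSS tumors, and tumor 13 is also the lowest for Cd3e, Cd8a, H2-K1 and Cd74.

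The genes lower with cyto-IL-15 included genes of macrophages, pericytes and vessels. In F13a1 and Abcc9 tumor 13 lay with the other cyto-IL-15 tumors, and in the endothelial Cdh5 it was the lowest. F13a1, coagulation factor XIII of tissue macrophages, was at 45.8, 47.4 and 70.5 CPM in the cyto-IL-15 tumors, and at 117, 202 and 221 CPM in the HBSS tumors. The groups did not overlap, and the log2 fold change was -1.72 ± 0.30 (SE), with an adjusted p of 0.898 by edgeR and 0.00139 by DESeq2. Cbr2, a reductase of resident-type macrophages, was at 9.32, 10.8 and 23 CPM with cyto-IL-15 and at 43.4, 37.9 and 65.9 CPM with HBSS (-1.77 ± 0.41, DESeq2 adjusted p = 0.0212). Cd163, the hemoglobin scavenger receptor, was at 3.60, 2.59 and 6.74 CPM with cyto-IL-15 and at 7.77, 7.53 and 10.5 CPM with HBSS (-0.99). The resident-type macrophage list as a whole was mixed. Its 21 genes had a median of -0.46, with 4 at an unadjusted p under 0.05 and 6 that did not overlap, all lower. None were called by edgeR and 2 by DESeq2, F13a1 and Cbr2, which were at edgeR adjusted p of 0.147 and 0.361 without tumor 13. The shares of all genes on the lower side were 1.67%, 5.72% and 0.0964% for p, overlap and DESeq2. By tumor, 13 of the 21 lay below all HBSS tumors in 9R and 19 in 13, but in 20LL 6 lay below and 11 lay above. Of all tested genes, 29.8% lay below in 9R, 41.6% in 13 and 29.7% in 20LL, and 30.8% lay above in 20LL. The median difference from the HBSS mean was -0.41 in 9R, -1.37 in 13 and 0.11 in 20LL. Mrc1, the mannose receptor, overlapped at 186, 175 and 309 CPM with cyto-IL-15 and 279, 280 and 362 CPM with HBSS, and without tumor 13 the list's median was -0.21. The general macrophage gene Csf1r also overlapped, at 479, 185 and 686 CPM with cyto-IL-15 and 666, 539 and 639 CPM with HBSS.

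Pericytes wrap small vessels, and 3 genes of their potassium channel and signaling apparatus were lower. Abcc9, the regulatory subunit of the channel, was at 9.01, 9.27 and 10.1 CPM in the cyto-IL-15 tumors, and at 30.3, 53.6 and 22.1 CPM in the HBSS tumors. The cyto-IL-15 tumors were nearly equal and the HBSS tumors spread (log2 fold change -1.90 ± 0.34 SE, edgeR adjusted p = 0.898, DESeq2 adjusted p = 0.00106). Kcnj8, the pore of the same channel, was at 4.42, 3.92 and 7.47 CPM with cyto-IL-15 and at 14.4, 25.6 and 10.9 CPM with HBSS (-1.68 ± 0.42, DESeq2 adjusted p = 0.0333). Rgs5, a brake on G protein signaling and a defining pericyte marker, was at 39.8, 22.0 and 59.8 CPM with cyto-IL-15 and at 127, 189 and 94.5 CPM with HBSS (-1.76 ± 0.42, DESeq2 adjusted p = 0.0278). In all 3 genes HBSS tumor 22R was the highest, and without tumor 13 the edgeR adjusted p was 0.294 for Kcnj8 and 0.215 for Rgs5. The pericyte list had 19 tested genes, 14 with a negative and 5 with a positive sign, and a median of -0.73. Of these, 8 were lower at an unadjusted p under 0.05, 8 did not overlap, all lower, and edgeR called 0 and DESeq2 4. The shares of all genes on the lower side were 1.67%, 5.72% and 0.0964% for p, overlap and DESeq2. In tumor 13, 12 of the 19 lay below all HBSS tumors and 5 above, where 41.6% and 39.7% of all tested genes did. Des, a filament gene that muscle fibers share, was the 1 list member higher at an unadjusted p under 0.05, at 132, 2.87 and 43.2 CPM with cyto-IL-15 and 8.29, 8.27 and 5.53 CPM with HBSS. Notch3, a receptor of mural cells, was at 37.8, 131 and 32.0 CPM with cyto-IL-15 and at 69.9, 77.8 and 62.3 CPM with HBSS, and it was 1 of the 2 genes called lower without tumor 13. The other was Fcna, ficolin A of macrophages, at 0.817, 6.48 and 0.926 CPM with cyto-IL-15 and at 3.07, 3.82 and 3.09 CPM with HBSS, which was likewise highest in tumor 13.

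Endothelial genes were lower by less. Of 18 tested, 17 had a negative sign, with a median of -0.64, 6 at an unadjusted p under 0.05, 6 that did not overlap, all lower, and 0 called by edgeR or DESeq2. Over all tested genes, 1.67% were lower at an unadjusted p under 0.05 and 5.72% did not overlap and were lower. The median difference from the HBSS mean was -0.43 in 9R, -1.17 in 13 and -0.31 in 20LL. Cdh5, VE-cadherin of endothelial junctions, was at 101, 61.0 and 129 CPM in the cyto-IL-15 tumors, and at 209, 431 and 141 CPM in the HBSS tumors (-1.42 ± 0.47 SE, edgeR adjusted p = 0.898). Pecam1, the other defining marker, overlapped at 91.5, 47.4 and 103 CPM with cyto-IL-15 and 121, 191 and 94.1 CPM with HBSS. Notch4, an endothelial Notch receptor, was at 20.5, 17.6 and 25.7 CPM with cyto-IL-15 and at 55.8, 94.7 and 48.9 CPM with HBSS (-1.64 ± 0.30, DESeq2 adjusted p = 0.00263). Apln, the ligand of sprouting tip cells, was at 25.5, 26.7 and 37.1 CPM with cyto-IL-15 and at 59.4, 133 and 74.7 CPM with HBSS (-1.58 ± 0.34, DESeq2 adjusted p = 0.0183). HBSS tumor 22R was the highest of the 6 in each of these genes, and it was also the highest in the red cell gene Hbb-bs, which was at 6.81, 2.58 and 7.05 CPM in the cyto-IL-15 tumors and at 13.9, 46.3 and 9.50 CPM in the HBSS tumors. The part of tumor 22R in these results was not tested beyond leaving it out. Over the 16 alternatives the log2 fold change stayed between -2.16 and -1.48 for Abcc9, -1.83 and -1.30 for Notch4, and -1.72 and -0.85 for Cdh5, and the edgeR adjusted p without tumor 13 was 0.154, 0.133 and 0.569 for these genes.

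**Figure D4:**
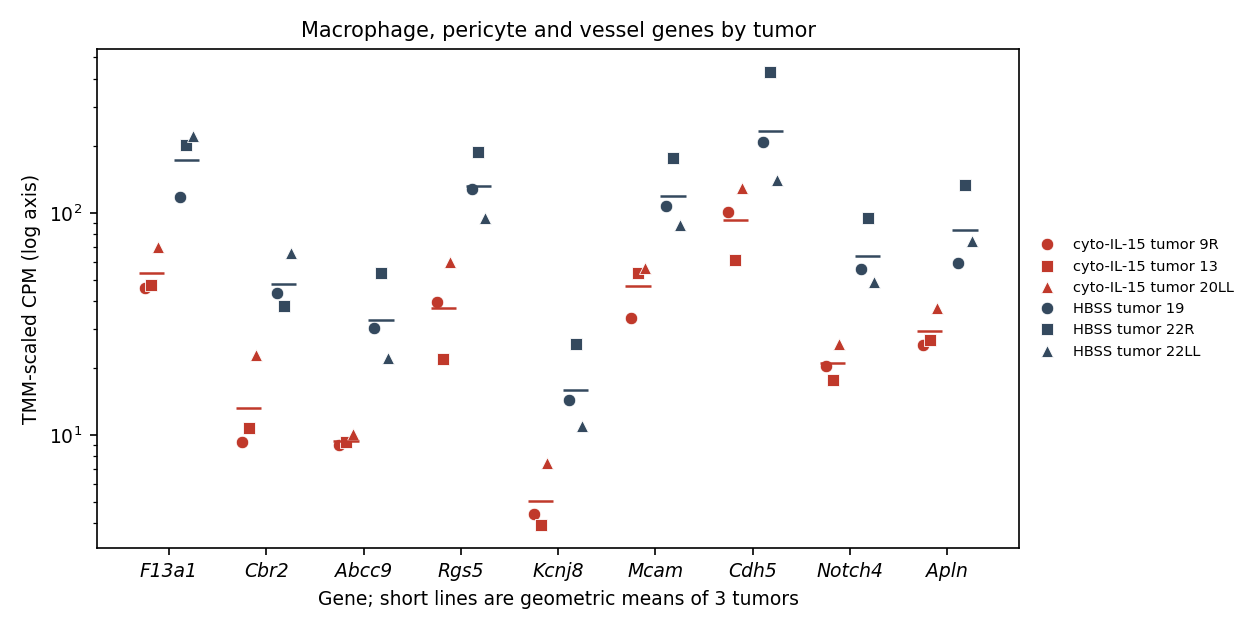
TMM-scaled CPM (log axis) of 9 macrophage, pericyte and vessel genes, 1 point per tumor, cyto-IL-15 tumors in red and HBSS tumors in dark blue, with the geometric mean of each group as a short line. Every gene shown has its 3 cyto-IL-15 tumors below its 3 HBSS tumors, as in Abcc9 with 9.01 to 10.1 CPM in the cyto-IL-15 tumors against 22.1 to 53.6 CPM in the HBSS tumors, and HBSS tumor 22R (dark blue squares) is the highest from Abcc9 on.

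Other genes had small p-values as well. Hspb6, a small heat shock protein of muscle tissues, was at 20.6, 11.4 and 13.4 CPM in the cyto-IL-15 tumors, and at 4.51, 3.39 and 5.04 CPM in the HBSS tumors (log2 fold change 1.81 ± 0.31 SE, edgeR adjusted p = 0.898, DESeq2 adjusted p = 0.000153). Atp8b4, a flippase subunit, was at 17.0, 11.1 and 17.2 CPM with cyto-IL-15 and at 5.75, 4.79 and 5.90 CPM with HBSS (1.46 ± 0.25, DESeq2 adjusted p = 0.00059). Car2, a carbonic anhydrase, was at 5.26, 4.41 and 6.75 CPM with cyto-IL-15 and at 2.18, 1.39 and 2.12 CPM with HBSS (1.53 ± 0.32). All 3 tumors were close to each other in Atp8b4 and Car2, tumor 13 included. Cdh1, E-cadherin of epithelial junctions, was at 10.5, 6.10 and 8.81 CPM with cyto-IL-15 and at 3.93, 2.74 and 3.26 CPM with HBSS (1.36 ± 0.30, DESeq2 adjusted p = 0.00934). Among the lower genes, Bche, butyrylcholinesterase, was at 10.5, 5.92 and 6.06 CPM with cyto-IL-15 and at 17.0, 29.8 and 23.6 CPM with HBSS (-1.64 ± 0.33, DESeq2 adjusted p = 0.0043, and edgeR 0.13 without tumor 13). Kit, the stem cell factor receptor of mast cells, was lower in all 3, at 9.42, 7.31 and 9.16 CPM with cyto-IL-15 and 15.6, 36.3 and 12.8 CPM with HBSS (-1.32). The mast cell protease genes were high in tumor 13 alone, with Mcpt4 at 0.740, 8.25 and 0.626 CPM with cyto-IL-15 and 0.372, 0.146 and 0.218 CPM with HBSS.

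What set tumor 13 apart reached far beyond lymphocytes. The genes farthest above the other 5 tumors were Serpinb2, an inhibitor of plasminogen activators, at 148 CPM against 0 to 0.524 CPM, Il33, an alarmin cytokine, at 701 CPM against 3.36 to 8.10 CPM, and Il5ra, the IL-5 receptor chain, at 328 CPM against 0.300 to 4.54 CPM. The genes farthest below were Gfra2, a receptor for neurturin, at 0.762 CPM against 375 to 559 CPM, Enpp2, the enzyme autotaxin, at 1.26 CPM against 414 to 715 CPM, and Mme, the peptidase neprilysin, at 0.665 CPM against 241 to 398 CPM. The plasma cell light chain Igkc was at 0.308 CPM in tumor 13, against 143 and 371 CPM in 9R and 20LL and 126 to 266 CPM in the HBSS tumors.

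Part of the difference lay in blocks of neighbouring genes. In overlapping windows of 10 genes, tumor 13 had 166 of 13725 more than 1 log2 unit above the median of the other 5 tumors and 234 more than 1 below. No other tumor had more than 45 above or 5 below. Part of the 234 lay over immune gene families, with 28 in the immunoglobulin kappa stretch of chromosome 6 and 25 in the heavy chain stretch of chromosome 12. Another 13 and 10 lay in 2 MHC stretches of chromosome 17. Such windows show the levels of those families by position and are no second result. The highest window median, 4.19, lay on chromosome 6 around Met, the hepatocyte growth factor receptor. Met was at 415, 6932 and 215 CPM in the cyto-IL-15 tumors, and at 217, 274 and 285 CPM in the HBSS tumors, 25.3-fold higher in tumor 13 than the median of the other 5. The same ratio was 25.6 for Tes, 32.8 for Cav2, 12.7 for Cav1, 21.7 for Capza2 and 12 for St7, which lie on both sides of Met between chr6:17065149-17943025. Foxp2, on the proximal side of Mdfic, had a ratio of 0.216, and Cttnbp2 on the distal side had 0.286, so the block lay between these genes. Of the tested genes on chromosome 6, 12.5% were more than 1 log2 unit above all other tumors in tumor 13, with 15.3% on chromosome 18 and 1.84% on chromosome 12.

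Yap1, the transcriptional effector of the Hippo pathway, took 3.32% of all counts in tumor 13. It was at 99.9, 36536 and 95.3 CPM in the cyto-IL-15 tumors, and at 129, 142 and 5037 CPM in the HBSS tumors. Tumor 13 was 319-fold, and HBSS tumor 22LL 44.0-fold, above the median of the 4 remaining tumors. Gm45494, a noncoding transcript that starts beside the Yap1 promoter, was at 55.2 CPM in tumor 13, against 8.22 CPM in 22LL and at most 0.350 CPM in the other 4. The nearest coding neighbours were not raised in tumor 13: Birc3, an inhibitor of apoptosis, was at 86.6, 18.6 and 67.1 CPM with cyto-IL-15 and 76.5, 73.4 and 84.2 CPM with HBSS. Farther off but within 1 Mb, Mmp12, a macrophage elastase, was at 23 CPM in tumor 13, against 1.05 to 2.53 CPM in the other 5. In 22LL the neighbour Cep126 was high as well, at 15 CPM against 0.664 to 2.34 CPM in the other 5. Tead4, a DNA-binding partner of Yap1, was at 1.87, 58.5 and 1.82 CPM with cyto-IL-15 and at 2.2, 2.76 and 7.32 CPM with HBSS, again highest in these 2 tumors. Krt8 and Krt19 were highest in the same 2 tumors, Krt19 at 0.175, 500 and 0.0876 CPM with cyto-IL-15 and 0, 0.0530 and 26.9 CPM with HBSS.

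**Figure D5:**
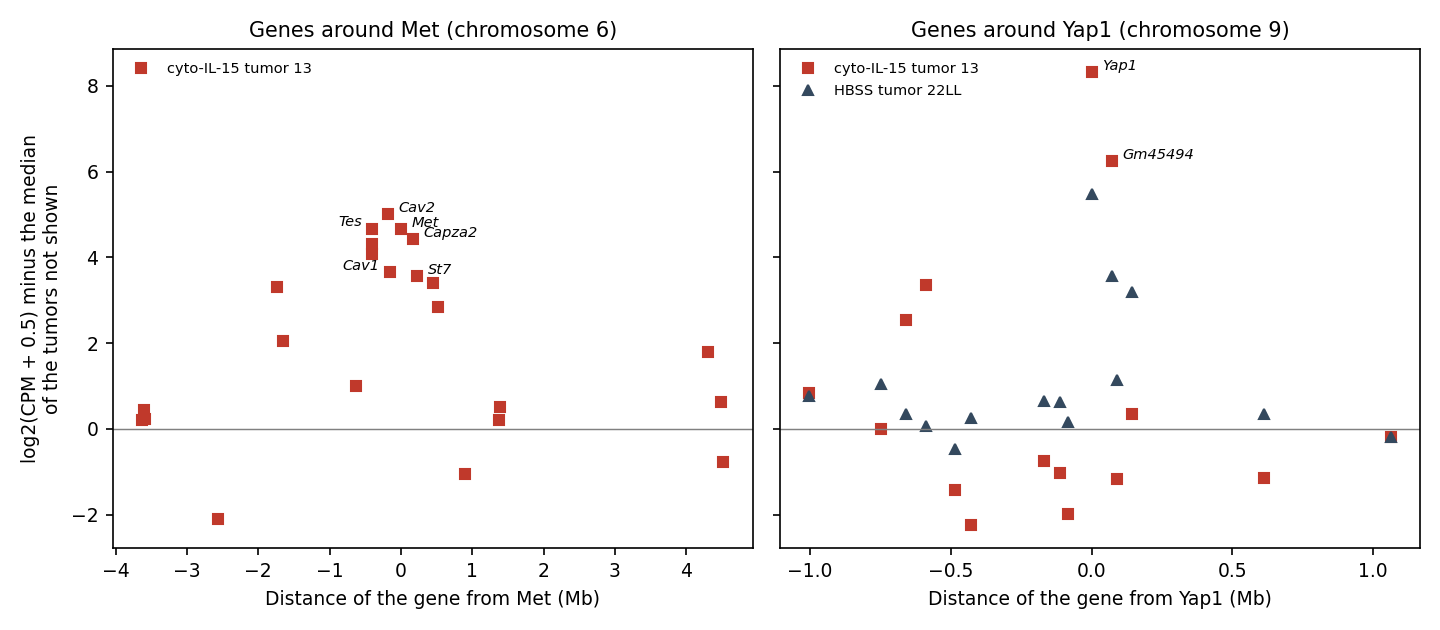
Difference in log2(CPM + 0.5) from the median of the tumors not shown, for genes around Met (left) and around Yap1 (right), by distance in Mb, with cyto-IL-15 tumor 13 in red and HBSS tumor 22LL in dark blue. Around Met the high points of tumor 13 form a block of neighbours, and around Yap1 the highest points are Yap1 and Gm45494, at 36536 and 55.2 CPM in tumor 13.

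Tumors 9R and 20LL differed from each other in few genes, 2.80% of those tested by more than 1 log2 unit, against 22.3% between 9R and 13. In 9R the gene farthest above the rest was Ace, the angiotensin-converting enzyme, at 328 CPM against 9.45 to 36.9 CPM in the other 5, and the one farthest below was Msln, mesothelin, at 4.07 CPM against 37.9 to 640 CPM. The muscle gene Actn3, fast-fiber alpha-actinin, was also among the 5 farthest above, at 14.2 CPM in 9R, against 0.259 to 2.47 CPM. In 20LL the 5 farthest above were all immunoglobulin variable genes, led by Igkv3-4 at 15.5 CPM against 0 to 0.544 CPM, and each HBSS tumor had such genes of its own, as with Igkv2-137 at 25.9 CPM in 22LL. Variable genes share sequence, and counts can shift among them. The farthest below in 20LL was Gm10800, at 0.751 CPM against 3.25 to 10.7 CPM.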

How the data were processed

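RNA from divided, frozen and then dissociated tumors was sequenced in bulk, and the authors deposited whole-number read counts per gene for each tumor. Per the labels and the study's methods, reads were demultiplexed with bcl2fastq 2.20, trimmed with Trimmomatic 0.36, aligned to GRCm38 with STAR 2.5.2b and counted with featureCounts of Subread 1.5.2. The strand setting is not given in the sources used here, so overlapping antisense genes cannot be told apart. Groups were taken from the labels. The 6 tumors were tested with edgeR 4.0.16 in R 4.3.3 (TMM, filterByExpr with a minimum count of 10, robust quasi-likelihood F test, Benjamini-Hochberg adjustment over the 18594 genes kept of 49315), and calls needed an adjusted p below 0.05 with a log2 fold change beyond 1 in either direction. SE is the log2 fold change over the root of F. DESeq2 1.42.0, limma 3.58.1 voom, other scalings and filters, all 12 tumors, removal of muscle genes and leaving out each tumor were alternatives. The edgeR and DESeq2 fits, with and without tumor 13, were run on simulated counts with known changes. Depth was 48772204 to 89374663 counts per tumor, and no pair of libraries was the same within counting noise.

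Named genes were drawn from the sets that follow, and not every member of a set is named above. By edgeR these were the 10 higher and 10 lower with the smallest p and a mean of at least 1 CPM. From the lists they were all granule and IL-15 receptor genes, up to 4 per other list by p, and defining markers of cell types. By tumor they were the 5 farthest above and below in each cyto-IL-15 tumor. By calls they were the 5 first in each direction of DESeq2 and of the fit without tumor 13. Genes within 1 Mb of Yap1 and genes named in the study's sequencing results were further sets. Klrd1, Klra4, Fcgr3, Cd274, Mrc1, Des, H2-K1, B2m, Cd74, Krt19, Igkv2-137, Met and its neighbours were chosen after their values were seen. The members and gene lists were chosen with earlier results of these data known, so lists are described by counts and medians and carry no p. Promoter sequences are from RefSeq (GRCm38.p6).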

Additional observations from a re-analysis of the deposited data

How the results depend on the processing

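No paired analysis was possible because the labels name each tumor singly and give no number shared between groups, and the replicate numbers used here only name the tumors and tie none of them together. The edgeR count of 0 called genes became 109 with DESeq2 (88 higher, 21 lower), 38 with the likelihood ratio test (29 higher, 9 lower), 2 with voom and quality weights (Gzmc and Prf1, both higher, with tumor 13 weighted at 0.117) and 1 without a filter on low counts (Gzmc, higher). It stayed at 0 with RLE or upper-quartile scaling, without the robust fit, with voom, with all 12 tumors, with muscle genes removed and with no fold-change threshold. Leaving out 1 tumor at a time gave 0 to 179 calls, 0 to 177 of them higher and 0 to 2 lower, and only the fit without tumor 13 gave any. Counted without tumor 13, as an alternative chosen after seeing the data, 2628 genes lay above and 2520 below all HBSS tumors. These were 5148 in all (27.7%), against 1990 with it (10.7%). This count rises by itself when a group has fewer tumors, so nothing is drawn from the rise. With a pseudocount of 2 CPM, 61 genes stood apart in 9R and 23 in 20LL. The pericyte median ran from -1.0 to -0.63 when 1 tumor was left out. A set of 54 genes, not all of them named above, was followed over the 16 alternative fits. All 54 kept their sign wherever they were tested, and 20 of them were called without tumor 13 and 26 by DESeq2. The counts are deep for all 6 tumors, and the precision is limited by 3 tumors a group and by the distance of tumor 13 from the others.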
